A study of Mus musculus with 5 samples.

Results

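Promoter contacts of the genes for growth factor ligands, receptors and signal transducers were compared between the supporting cells of the fetal mouse testis and ovary. The members are promoter baits whose gene symbols match a list of family names (Wnt, Fzd, Bmp, Bmpr, Acvr, Tgfb, Inhb, Gdf, Fgf, Notch, Dll, Jag, Smad, Axin, Dkk, Sfrp, Lrp, Lgr, Pdgf and Irs) or are Inha, Igf1r, Insr or Insrr. Fgfr1op and Fgfr1op2 were left out. Only cis interactions of baits on chromosomes 1 to 9 were used. With the original baits, which are single restriction fragments, 49 of 7674 baits met the rule, and they stood for 38 genes and 170 of 28991 listed interactions. With the extended baits, which are bins of about 5 kb, 74 of 11063 baits met it, for 58 genes and 302 of 50644 interactions. In all 62 genes had a bait in either table and 34 had one in both. The rule goes by name, so 3 of the genes (Dkkl1, Jagn1 and Tgfb1i1) only share a name with a pathway, and Lrp1b, Lrp3, Lrp4, Lrp8, Lrpap1 and Lrp2bp belong to the wider LDL receptor family. These are described apart.

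Capture Hi-C joins DNA ends that lie close together in crosslinked chromatin and enriches the joined pieces that carry a chosen promoter fragment. It was applied to 3 libraries of Sertoli cells, sorted on GFP from Sox9IRES-GFP gonads, and 2 libraries of pre-granulosa cells, sorted on mCherry from Enh8-mCherry gonads. All were collected at E13.5, with about 100000 sorted cells in each library, so each population is defined by what its reporter marks. The tables give a CHiCAGO score per interaction and cell type, 1 column for all libraries of that type, so no value below has a replicate error, no test between the cell types was possible, and the depth is unknown. A score rises with the evidence that a bait and a bin are joined more often than their distance predicts, and a score of at least 5 is taken as a call. An interaction is listed only where at least 1 cell type reached 5, so the scores say nothing of promoters without a listed contact. Contacts do not measure expression, so the cell type labels could not be checked against marker genes.

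Growth factors are secreted proteins that bind receptors on the same or neighbouring cells. WNT ligands act through Frizzled receptors with the co-receptor LRP6, and R-spondins bind LGR receptors to prolong that signal. TGF-beta, BMP, activin and GDF ligands bind serine/threonine kinase receptors that activate SMAD proteins, whereas FGF, PDGF and insulin-like ligands bind receptor tyrosine kinases, and NOTCH is cleaved after contact with a ligand on the next cell. In the gonad, WNT and R-spondin signals favour ovarian fate, FGF9 acting on FGFR2 and the insulin receptor family favour testicular fate, and PDGFRA is known for its part in the testis interstitium.

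The promoters of 6 members that the results below turn on are shown first, because the bait at or beside the promoter is the end of the contact that was captured. DpnII, which cuts at GATC, sets the ends of each bait, and GATC is the only part in capitals. Each run covers 250 bases before to 50 bases after the start of the gene, 5′ to 3′ on the strand of the gene, from RefSeq on GRCm38.p6. The Wnt7a window is chr6:91411304-91411603 on the minus strand and the Fgfr3 window chr5:33721474-33721773 on the plus strand. The windows of Inha (chr1:75507359-75507658), Lgr4 (chr2:109917397-109917696), Fgf7 (chr2:126034408-126034707) and Pdgfra (chr5:75152001-75152300) are all on the plus strand.
Wnt7a: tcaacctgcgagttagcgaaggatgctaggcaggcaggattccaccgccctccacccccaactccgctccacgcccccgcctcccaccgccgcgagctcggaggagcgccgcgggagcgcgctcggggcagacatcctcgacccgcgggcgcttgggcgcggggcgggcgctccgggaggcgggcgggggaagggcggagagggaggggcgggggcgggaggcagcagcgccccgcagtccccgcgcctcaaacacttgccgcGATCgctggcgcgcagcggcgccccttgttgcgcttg
Fgfr3: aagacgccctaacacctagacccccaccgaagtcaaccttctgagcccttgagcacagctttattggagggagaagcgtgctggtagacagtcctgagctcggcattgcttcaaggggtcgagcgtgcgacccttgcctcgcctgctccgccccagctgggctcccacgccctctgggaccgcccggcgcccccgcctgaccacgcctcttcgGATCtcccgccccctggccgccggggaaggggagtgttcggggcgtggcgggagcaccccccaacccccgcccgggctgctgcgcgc
Inha: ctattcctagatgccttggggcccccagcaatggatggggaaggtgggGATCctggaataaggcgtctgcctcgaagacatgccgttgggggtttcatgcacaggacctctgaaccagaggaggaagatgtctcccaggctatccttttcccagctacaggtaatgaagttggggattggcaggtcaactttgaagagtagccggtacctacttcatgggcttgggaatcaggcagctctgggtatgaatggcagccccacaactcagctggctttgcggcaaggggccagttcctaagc
Lgr4: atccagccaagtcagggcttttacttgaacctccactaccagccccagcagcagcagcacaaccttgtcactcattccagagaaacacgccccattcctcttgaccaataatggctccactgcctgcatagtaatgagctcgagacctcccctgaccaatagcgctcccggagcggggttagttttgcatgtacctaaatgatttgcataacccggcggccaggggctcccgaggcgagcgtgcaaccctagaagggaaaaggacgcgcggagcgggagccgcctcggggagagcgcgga
Fgf7: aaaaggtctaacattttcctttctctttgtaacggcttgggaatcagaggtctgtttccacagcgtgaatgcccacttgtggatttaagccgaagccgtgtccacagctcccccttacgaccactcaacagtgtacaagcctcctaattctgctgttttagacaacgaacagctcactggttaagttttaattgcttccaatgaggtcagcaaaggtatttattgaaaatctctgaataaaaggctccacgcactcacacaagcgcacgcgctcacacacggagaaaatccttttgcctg
Pdgfra: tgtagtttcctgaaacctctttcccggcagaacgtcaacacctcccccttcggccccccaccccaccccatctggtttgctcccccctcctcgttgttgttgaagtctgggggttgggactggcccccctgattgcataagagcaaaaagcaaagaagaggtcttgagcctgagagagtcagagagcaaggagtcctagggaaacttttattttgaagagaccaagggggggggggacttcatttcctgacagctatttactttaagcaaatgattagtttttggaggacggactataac
The single GATC of Wnt7a, Fgfr3 and Inha lies at the border of its bait in the interaction table. Those baits are 470, 660 and 1196 bp long and hold 267, 213 and 48 of the 300 bases shown, so the gene start of Wnt7a lies in the bait and those of Fgfr3 and Inha lie outside it. No GATC lies in the windows of Lgr4, Fgf7 and Pdgfra, whose baits of 1497, 1408 and 1170 bp hold the whole window. The G and C content runs from 45.7% in Fgf7 to 76.0% in Wnt7a. Among all baits, each of the 2083 bait borders inside a RefSeq promoter window had GATC in RefSeq at that position, 15 of them in member baits. RefSeq gave 51 promoter windows for 49 of the 62 genes, and 25 of the 51 (49.0%) held GATC, beside 47.7% of all 18612 promoters.

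More contacts were called in Sertoli cells than in pre-granulosa cells for most of these genes, and with the original baits the balance was close to that of other promoters. With the original baits, 136 of the 170 listed interactions (80%) were called in Sertoli cells, and over all baits the share was 80.2%. In pre-granulosa cells 73 (42.9%) were called, beside 41.5% over all baits. Both cell types called 39, which is 22.9% of those listed beside 21.7% over all baits. As a share of each list, these 39 were 28.7% of what was called in Sertoli cells (21.7 to 36.8, a 95% Wilson interval) and 53.4% of what was called in pre-granulosa cells (42.1 to 64.4). There were 97 Sertoli-specific calls (57.1%, beside 58.5% over all baits) and 34 pre-granulosa-specific calls (20%, beside 19.8%). None of these 5 shares lay more than 2 percentage points from that over all baits. More Sertoli than pre-granulosa calls were found for 34 of 49 baits (69.4%, beside 65.2% over all baits), and the opposite for 10 (20.4%, beside 22.0%). By gene, 27 had more Sertoli calls, 8 (Acvr2b, Bmp5, Fgfbp1, Lrp3, Pdgfra, Tgfb2, Tgfbr3l and Wnt2) had more pre-granulosa calls, and 3 (Dll3, Lrp2bp and Lrp8) had equal numbers. For 19 of the 38 genes the difference was at most 1 call. The excess of Sertoli calls depends on the threshold: when the Sertoli threshold was set at 6.42, so that both cell types had as many calls over all baits, these baits had 68 Sertoli and 73 pre-granulosa calls. Of these, 41 and 46 were specific, so the excess of Sertoli-specific calls turned as well.

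**Figure D1:**
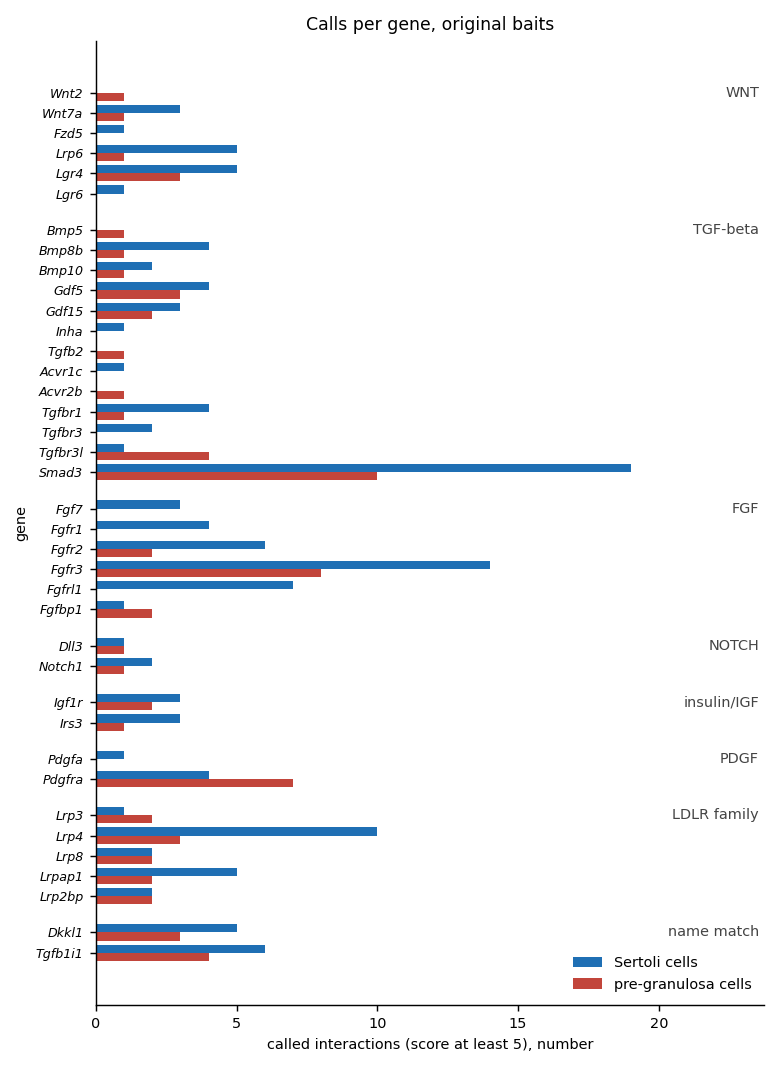
Called interactions (number, horizontal axis) of each of the 38 genes with the original baits, in Sertoli cells (blue) and pre-granulosa cells (red), grouped by pathway. Smad3 and Fgfr3 have the most calls, with 19 and 14 in Sertoli cells, and Pdgfra and Tgfbr3l have more calls in pre-granulosa cells.

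The called scores were mostly modest. The median score of a call was 6.47 in Sertoli cells (95% interval 6.06 to 6.92) and 6.08 in pre-granulosa cells (5.69 to 6.75). Shared calls scored higher than specific calls, with medians of 7.26 and 6.09 in Sertoli cells and 6.95 and 5.63 in pre-granulosa cells, as they did at other baits (8.04 and 6.19, and 6.96 and 5.82). At 28 of the 97 Sertoli-specific calls (28.9%, beside 34.0% for other baits) the other cell type also scored 3 or more, and at 27 (27.8%, beside 23.0%) it scored under 1. At the 34 pre-granulosa-specific calls it scored 3 or more at 14 (41.2%, beside 48.4%) and under 1 at 9 (26.5%, 14.6 to 43.1, beside 9.61%). A pre-granulosa score of 0 stood beside 13 of the 136 Sertoli calls (9.56%, 5.67 to 15.7), against 5.21% of the Sertoli calls of other baits, and 10 of the 13 were contacts of Fgf7, Fgfr1 or Fgfr2. A listed 0 may be an interaction without a usable value, so those contacts give no measured difference.

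**Figure D2:**
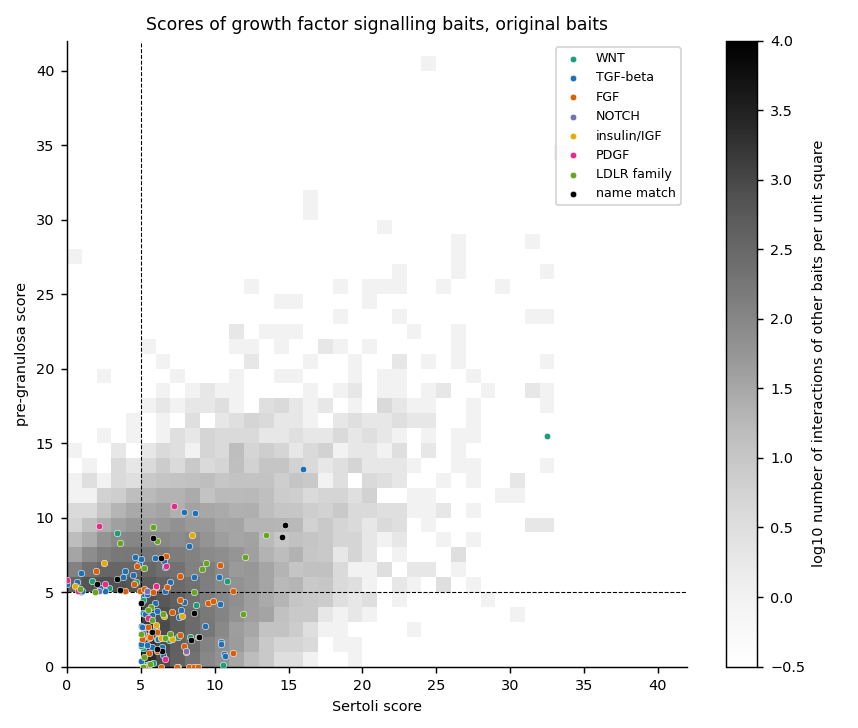
Pre-granulosa score against Sertoli score for the 170 listed interactions of the members (points, coloured by pathway) over those of all other original baits (grey squares, log10 number), with dashed lines at the call threshold of 5. The lower left square is empty because the table lists no interaction with both scores under 5, and the Wnt7a contact at 32.5 and 15.4 stands farthest to the right.

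The median contact of these genes lay farther away than that of other promoters in both cell types. The median distance from bait to called bin was 52.1 kb in Sertoli cells (95% interval 41.7 to 82.4) beside 42.5 kb for other baits, and 43.0 kb in pre-granulosa cells (18.97 to 92.3) beside 25.9 kb. The median of the 39 shared calls was 41.7 kb (8.75 to 96.9) beside 17.2 kb for other baits. The extended baits gave 58.2 kb (48.2 to 74.5) and 59.6 kb (48.2 to 76.3), beside 47.9 and 37.8 kb. With the original baits the intervals hold the values of the other baits. With the extended baits they lie above them, in Sertoli cells only just (from 48.2 kb, beside 47.9 kb). The intervals cover counting error only and take no account of calls that share a bait or a gene. They are too narrow where touching bins share signal, so they do not test whether the distances differ. Original contacts beyond 200 kb were listed for 6 genes, Pdgfra, Fgfr2, Fgf7, Lgr4, Fgfr1 and Tgfb2. Touching bins may share signal, which was not tested, and merging them left 112 Sertoli and 64 pre-granulosa contacts.

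**Figure D3:**
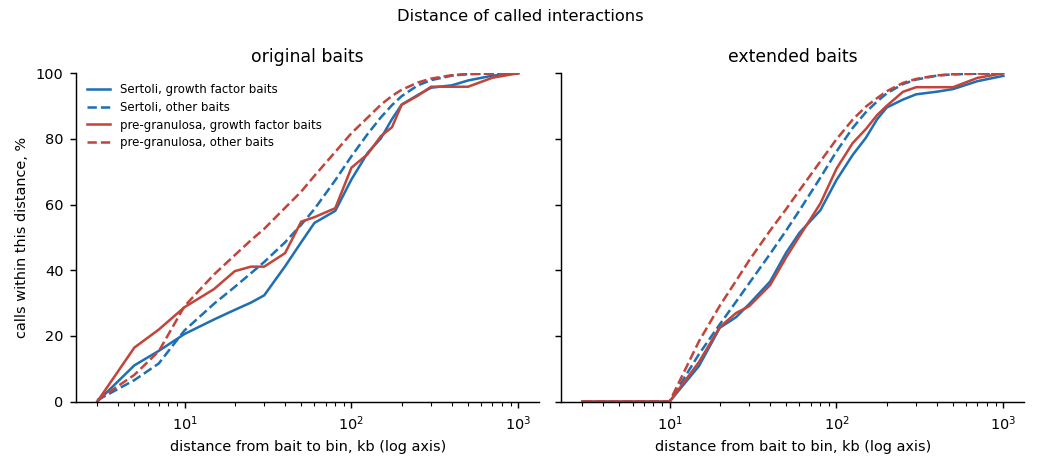
Share of called interactions (percent, vertical axis) within a given distance of the bait (kb, log axis) for the members (solid) and other baits (dashed), in Sertoli cells (blue) and pre-granulosa cells (red), original baits at left and extended baits at right. Within 100 kb lay 67.6% of the members' Sertoli calls and 71.2% of their pre-granulosa calls with the original baits, against 74.7% and 81.7% for other baits.

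The share of called bins without an annotated gene depended on the baits. With the original baits, 40 of the 136 Sertoli calls (29.4%, 22.4 to 37.6) fell in bins without a RefSeq gene, beside 19.4% for other baits, and 23 of the 73 pre-granulosa calls (31.5%, 22.0 to 42.9), beside 21.5%. A further 37 Sertoli calls (27.2%, beside 30.1% for other baits) and 23 pre-granulosa calls (31.5%, beside 34.8%) lay within the gene of the bait itself. Another protein-coding gene held 43 Sertoli calls (31.6%, 24.4 to 39.8, beside 43.4%) and 17 pre-granulosa calls (23.3%, 15.1 to 34.2, beside 36.6%). With the extended baits this share was 57.4% of the Sertoli calls, beside 64.5% for other baits, and 63.8% of the pre-granulosa calls, beside 63.0%. The lower share in pre-granulosa cells was thus found with the original baits alone. For the 32 genes with original baits whose strand RefSeq gave, 51 Sertoli calls lay downstream and 54 upstream of the bait. Of the pre-granulosa calls, 24 lay downstream and 38 upstream. Of the 146 distinct bins listed for the original baits, 49 were also listed for baits of genes outside the set, a share not counted for other baits.

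The WNT group had 6 genes with the original baits, and 19 listed contacts. Of these, 15 (78.9%) were called in Sertoli cells, 6 (31.6%) in pre-granulosa cells and 2 (10.53%) in both, beside 80.2%, 41.5% and 21.7% over all baits. Wnt7a, a ligand known for patterning of the female reproductive tract, had the highest score of the 49 original baits in both cell types. Wherever scores stand as a pair, the Sertoli score comes first. Its contact with chr6:91282833-91288679, 126 kb downstream of its promoter in a bin without a RefSeq gene, had a score of 32.5 in Sertoli and 15.4 in pre-granulosa cells. A bin 115 kb downstream scored 8.33 and 1.958, and a bin within the gene, 6.49 kb away, 5.13 and 4.49. The far contact was thus called in both cell types and the other bins in Sertoli cells alone. Wnt2, another WNT ligand, had 1 listed contact, 4.30 kb away within the gene, which scored 3.41 in Sertoli and 8.93 in pre-granulosa cells.

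Among the WNT receptors, Lrp6 had 5 Sertoli calls and 1 pre-granulosa call, all inside the gene. Its Sertoli calls lay 14.8 to 112 kb from the bait with scores of 5.03 to 8.75, beside pre-granulosa scores of 0.231 to 4.12 at the same bins, and the bin 4.48 kb away scored 4.67 and 5.70. With as many calls in both cell types over all baits, Lrp6 had 1 call in each. Fzd5, a Frizzled receptor, had a contact 198 kb upstream, in Plekhm3, that scored 7.49 in Sertoli cells, with a 0 listed for pre-granulosa cells. Lgr4, a receptor for R-spondins, contacted a block of 4 touching bins 273 to 289 kb downstream. From the nearest bin outwards the Sertoli scores were 10.6, 1.71, 10.9 and 6.92, and the pre-granulosa scores 0.130, 5.74, 5.75 and 1.76. The nearest bin was thus called in Sertoli cells alone, the next in pre-granulosa cells alone and the third in both. With the extended Lgr4 bait the same bins scored 9.92, 0.634, 10.01 and 5.86 against 1.89, 5.88, 5.89 and 1.86, so each bin kept its class. Within its own gene the Lgr4 bait had Sertoli calls at 36.6 and 47.1 kb and a pre-granulosa call at 75.6 kb (2.83 and 5.26). Lgr6, a related receptor, had 1 contact, 146 kb downstream, at 5.34 and 0.115, which is no call at the Sertoli threshold of 6.42.

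The extended baits added the promoters of Wnt2b, Wnt5b, Wnt6, Wnt10a, Wnt11, Fzd7, Fzd9 and Dkk3, a secreted protein of the Dickkopf family. The WNT group then had 37 listed contacts, 32 (86.5%) called in Sertoli cells, 13 (35.1%) in pre-granulosa cells and 8 (21.6%) in both, beside 78.7%, 55.9% and 34.6% over all baits. Each of the 6 ligands among the 13 WNT genes there had more Sertoli than pre-granulosa calls, by 1 call for Wnt2b, Wnt7a, Wnt10a and Wnt11. Sertoli cells called each of their 13 listed contacts, and pre-granulosa cells 5 of them (38.5%). By bait, all 7 ligand baits had more Sertoli calls, beside 53.6% of all extended baits. The neighbouring ligand genes Wnt6 and Wnt10a, 17.0 kb apart, contacted each other: from Wnt6 the scores were 9.15 in Sertoli and 6.68 in pre-granulosa cells, and from Wnt10a 9.45 and 9.10. Both also reached the bin of the Stk36 promoter, 168 kb from Wnt6 (8.37 and 4.26) and 185 kb from Wnt10a (9.16 and 1.39), in Sertoli cells alone. Wnt5b contacted the Adipor2 promoter 62.0 kb away at 7.56 and 10.98, and Wnt2b contacted St7l at 6.45 and 7.73. Fzd7 had 2 calls in each cell type and Fzd9 had 1 in each. Wnt11 and Dkk3 each had 1 Sertoli call, at 5.70 and 5.48, with pre-granulosa scores of 4.77 and 2.49.

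In the TGF-beta group, 13 genes had 53 listed contacts with the original baits. Sertoli cells called 41 (77.4%), pre-granulosa cells 25 (47.2%) and both 13 (24.5%), beside 80.2%, 41.5% and 21.7% over all baits. With the extended baits the group had 82 listed contacts, 64 called in Sertoli cells (78.0%), 35 in pre-granulosa cells (42.7%) and 17 in both (20.7%), beside 78.7%, 55.9% and 34.6% over all baits. Of the 13 genes with original baits 9 had more Sertoli calls and 4 (Bmp5, Tgfb2, Acvr2b and Tgfbr3l) more pre-granulosa calls. By bait, 11 of 15 had more Sertoli calls, beside 65.2% of all baits, and 4 more pre-granulosa calls, beside 22.0%. Among the ligands, Inha encodes the alpha subunit of inhibin, a hormone made by Sertoli and granulosa cells. Its original bait had 1 listed contact, 12.8 kb downstream, at 5.03 in Sertoli and 2.73 in pre-granulosa cells, which is no call at the Sertoli threshold of 6.42. The extended bait, a bin shared with Obsl1, had 4 Sertoli calls and 1 pre-granulosa call, led by a bin in Obsl1 15.7 kb away at 15.1 and 6.996. The other 3 lay 10.47, 15.7 and 38.7 kb downstream, where Sertoli cells scored 6.20, 6.80 and 5.16 and pre-granulosa cells 3.70, 4.89 and 4.04. All 4 therefore scored higher in Sertoli cells, and the lowest of the 4 pre-granulosa scores was 3.70.

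The BMP and GDF ligands differed in where their contacts lay. Bmp8b had 4 calls in Sertoli and 1 in pre-granulosa cells. Its Sertoli contacts 98.8 and 114 kb upstream scored 5.04 each, beside 0.377 and 1.5004 in pre-granulosa cells. The strongest Sertoli call, 3.59 kb upstream, scored 7.89 and 4.31, and the pre-granulosa call, 8.60 kb upstream, 3.78 and 5.99. Of the Sertoli calls, only the strongest reached the higher threshold that gives both cell types as many calls over all baits. The extended bait had 6 Sertoli and 2 pre-granulosa calls, 1 contact being shared, with scores up to 11.3 and 10.8. Bmp5 had 1 listed contact, 3.31 kb away, at 0.949 and 6.25. Bmp10 contacted the bin 4.22 kb upstream at 10.3 and 5.98, a shared call, and a bin 30.5 kb away at 5.23 and 4.85. Gdf5, known for its part in joint formation, had 5 listed contacts, all 91.1 to 135 kb towards lower coordinates and 4 of them within Uqcc1, Fam83c or Mmp24. The strongest in Sertoli cells scored 10.4 and 1.55, and the strongest in pre-granulosa cells, 96.5 kb away, 7.94 and 10.4. With the extended bait that last bin's counterpart scored 7.44 and 5.44, so the order of the cell types turned. Gdf15, a stress-induced ligand, contacted bins 8.68 and 14.5 kb away in both cell types (8.28 and 8.06, then 8.57 and 6.02) and a bin 20.7 kb away in Sertoli cells (10.4 and 1.67). Tgfb2 had 1 listed contact, 523 kb downstream in a bin without a RefSeq gene, at 0 in Sertoli and 5.54 in pre-granulosa cells. The extended bait of Tgfb2 had that contact at 0 and 6.82 and also a Sertoli call 1024 kb downstream, at 5.44 and 4.30, so it had 1 call in each cell type.

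Among the receptors, Tgfbr1, the type I receptor for TGF-beta, had 4 contacts, all upstream and all within the collagen gene Col15a1. At 108, 102, 96.4 and 69.9 kb the Sertoli scores were 5.04, 10.7, 10.4 and 5.44, and the pre-granulosa scores were 7.24, 0.696, 4.18 and 1.47. All 4 were called in Sertoli cells, and the farthest was called in both cell types. Tgfbr3, which encodes betaglycan, a co-receptor for inhibin and TGF-beta, had 2 Sertoli calls, 13.46 kb away within the gene (6.15 and 1.86) and 100.2 kb away (5.58 and 0.191), and neither reached the Sertoli threshold of 6.42 that gives both cell types as many calls over all baits. Acvr1c, a type I activin receptor, had 1 contact, 3.39 kb away, at 7.59 and 3.34. Acvr2b, a type II activin receptor, had 1 contact, in Xylb, at 3.95 and 6.44. Tgfbr3l, a relative of betaglycan, went the other way from most of the group, with 4 pre-granulosa calls and 1 Sertoli call. Its pre-granulosa scores were only just past the threshold, 5.002 to 5.27, while the bin in Evi5l called in both cell types scored 6.62 in Sertoli cells. With the extended bait Tgfbr3l had 5 pre-granulosa calls with scores of 5.36 to 12.3 and no Sertoli call, the highest Sertoli score being 3.55. The strongest of the 5 was the contact with the promoters of Snapc2 and Ctxn1, 10.4 kb away (2.93 and 12.3).

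Smad3, the transducer of TGF-beta and activin signals, had the most listed contacts, 23 from 3 baits that span 84.6 kb of the gene, with 19 Sertoli and 10 pre-granulosa calls. The bait Smad3-205 contacted the bin 4.21 kb away at 16.0 in Sertoli and 13.2 in pre-granulosa cells and the bin 8.18 kb away at 8.68 and 10.3. Of the 14 bins contacted, 7 were listed from 2 or more of the baits. The bin chr9:63841168-63846203, upstream of the gene and without a RefSeq gene, was listed from all 3. It scored 6.51 and 0.759 from the bait 177 kb away, 10.6 and 0.825 from the bait 132 kb away, and 4.58 and 7.34 from the bait 92.5 kb away. The same bin was thus called in Sertoli cells from the farther baits and in pre-granulosa cells from the nearest. The extended baits gave the same order at this bin, with 5.48 and 0.512, then 10.6 and 0.552, and 3.58 and 7.11. The excess of Smad3 calls in Sertoli cells turned when both cell types had as many calls over all baits, to 7 Sertoli and 10 pre-granulosa calls.

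The extended baits added Acvr1, Bmpr2, Bmp7, Bmp8a, Tgfb1 and Smad9. Bmpr2, the type II receptor for BMPs, contacted Nop58 at 2 bins in opposite ways, 79.6 kb away at 3.33 and 8.68 and 58.2 kb away at 10.1 and 2.17, and Fam117b, 150.0 kb away, at 5.93 and 7.40. Acvr1, a type I receptor for BMPs, had 1 Sertoli-specific contact (6.68 and 2.45) and 1 pre-granulosa-specific contact (2.01 and 7.05). Bmp7 contacted the Rbm38 promoter 79.4 kb away at 3.56 and 9.89, its only listed contact. Tgfb1 had 3 Sertoli calls (6.497, 8.11 and 10.8) with pre-granulosa scores of at most 3.83. Bmp8a had 2 Sertoli calls, at 7.32 and 9.55, beside 1.75 and 0. Smad9 had 1 call in each cell type, at 5.29 and 6.81. Acvr2b, which had a pre-granulosa call alone with the original bait, had 2 shared calls, the stronger with the promoters of Myd88 and Acaa1a, at 10.7 and 13.6.

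**Figure D4:**
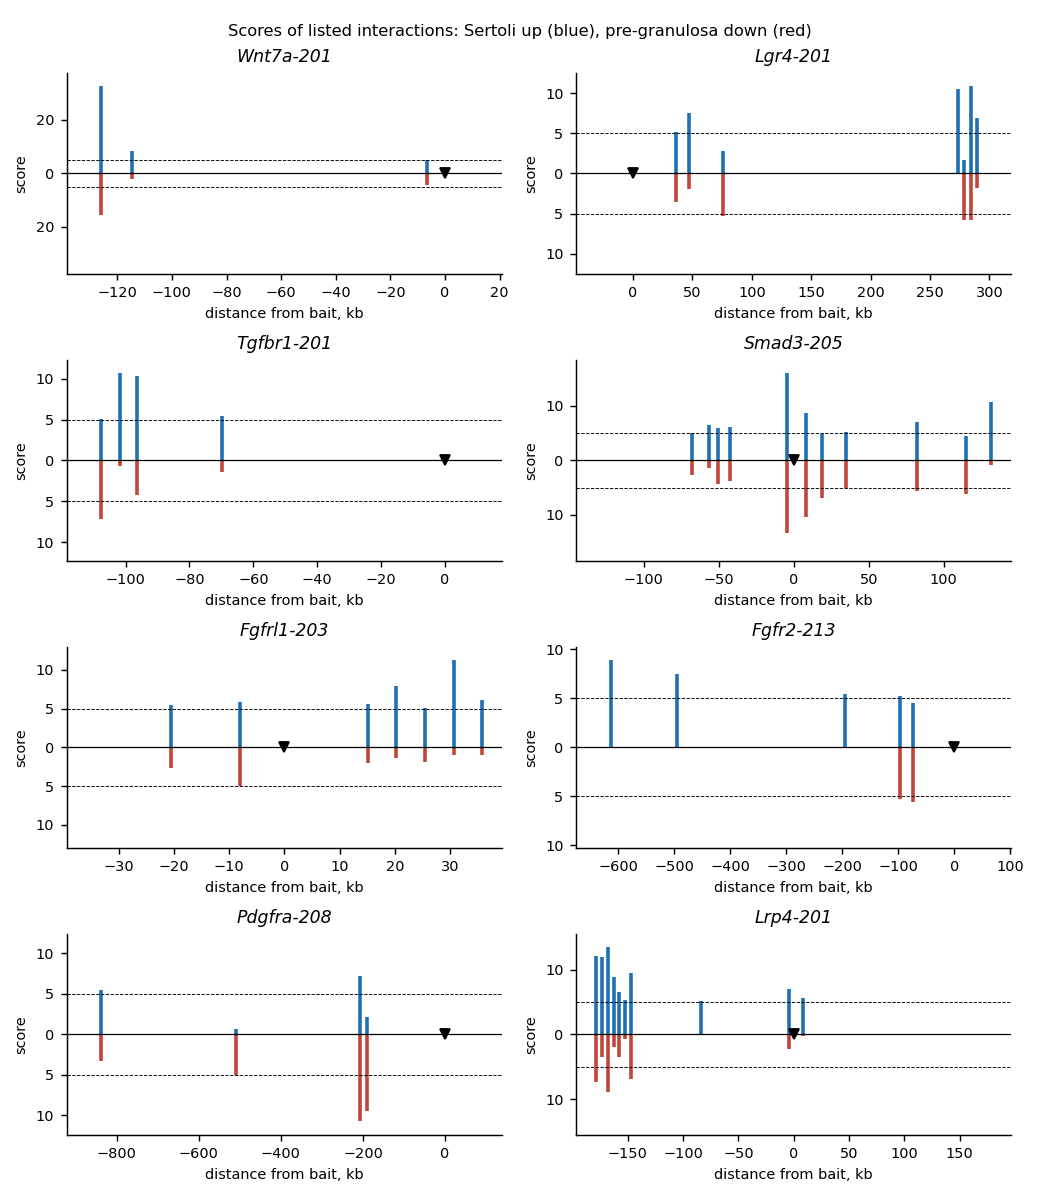
Scores (vertical axis) of the listed contacts of 8 original baits against distance from the bait in kb, positive towards higher coordinates, with Sertoli scores upwards in blue, pre-granulosa scores downwards in red, a triangle at the bait and dashed lines at 5. Wnt7a and Lgr4 contact far blocks, the Tgfbr1 contacts lie 69.9 to 108 kb away, no contact of Fgfrl1 reaches 5 in pre-granulosa cells, and the contacts of Pdgfra-208, the Pdgfra bait shown, near 200 kb score higher in pre-granulosa cells.

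The FGF group had 40 listed contacts with the original baits, 35 (87.5%) called in Sertoli cells, 12 (30%) in pre-granulosa cells and 7 (17.5%) in both, beside the same 80.2%, 41.5% and 21.7% over all baits. The extended baits had 61 listed contacts, 53 (86.9%) called in Sertoli cells, 31 (50.8%) in pre-granulosa cells and 23 (37.7%) in both, beside 78.7%, 55.9% and 34.6% over all baits, so the shared share lay below that of all baits in the original table and above it in the extended table. The receptors held 31 of the Sertoli and 10 of the pre-granulosa calls of the original baits. With as many calls in both cell types over all baits, Fgfr1 had 1 Sertoli and 0 pre-granulosa calls, Fgfr2 had 2 and 2, Fgfr3 10 and 8, and Fgfrl1 2 and 0. Fgfr2, the receptor through which FGF9 acts in testis determination, had 2 baits with 6 Sertoli and 2 pre-granulosa calls. Its far downstream contacts at 613, 495 and 195 kb scored 8.88, 7.45 and 5.42 in Sertoli cells from the bait Fgfr2-213, and all were listed at 0 in pre-granulosa cells. The other Fgfr2 bait reached the bin beside the farthest one (5.49) and the same bin near 199 kb (5.31), again with 0 in pre-granulosa cells. Inside the gene, 96.9 and 74.6 kb from the bait, the scores were 5.20 and 5.21, then 4.51 and 5.54. The contacts within the gene thus had scores of 4.51 to 5.54 in both cell types, and the contacts outside it had a Sertoli score only.

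With the original bait Fgfr1 had 4 Sertoli calls and no pre-granulosa call: 249 kb away at 8.60 with 0 in pre-granulosa cells, 239 kb away at 6.09 and 2.32, 135 kb away at 5.50 and 0, and 3.92 kb away at 5.38 and 2.06. The extended baits of Fgfr1 had 3 Sertoli calls and 1 pre-granulosa call, a shared contact 10.6 kb away at 6.57 and 5.55. Fgfr3 had 4 baits within 12.0 kb, 17 listed contacts, and 14 Sertoli and 8 pre-granulosa calls, all on the 5′ side of their baits and in part within Tacc3. From Fgfr3-214 the 4 touching bins 34.2 to 49.96 kb upstream scored 5.56 to 9.88 in Sertoli cells and 0.906 to 4.39 in pre-granulosa cells. The 4 bins 8.75 to 24.1 kb upstream were all called in pre-granulosa cells, at 6.08 to 7.41, and 2 of them also in Sertoli cells, at 6.70 and 7.66. From this bait the nearer block was thus called in pre-granulosa cells and the farther block in Sertoli cells alone. From Fgfr3-213, farther into the gene, a bin of the nearer block scored 5.56 and 1.92 and a bin of the farther block 11.2 and 5.08, so the split did not hold for every bait. From the extended bait at the 3′ part of the gene, the farther block was called in both cell types, at 13.3 and 11.2 in the bin 58.5 kb away and 16.7 and 8.12 in the bin 43.0 kb away.

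Fgfrl1, an FGF receptor without the tyrosine kinase domain, had 7 Sertoli calls and no pre-granulosa call, and 3 Sertoli contacts once touching bins were merged. A run of 5 touching bins 15.1 to 35.8 kb downstream scored 5.63, 7.90, 5.11, 11.3 and 6.06 in Sertoli cells and 1.98, 1.404, 1.85, 0.922 and 1.03 in pre-granulosa cells. A bin 8.08 kb upstream scored 5.85 and 4.9996, just under a call. The extended baits of Fgfrl1 had 10 Sertoli and 5 pre-granulosa calls. Its downstream run there had 6 touching bins from 11.6 to 38.0 kb, at 5.26 to 11.2 in Sertoli cells. Leaving out the nearest, the 5 bins from 17.3 to 38.0 kb scored at most 2.58 in pre-granulosa cells. Of the 5 pre-granulosa calls, 4 lay upstream.

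The FGF ligands with a bait were few. Fgf7, a ligand made by mesenchymal cells, had 3 listed contacts, 172 kb upstream in Galk2 and 399.7 and 473 kb downstream, at 5.11, 8.27 and 6.35 in Sertoli cells, while pre-granulosa cells were listed at 0 for all 3. With the extended bait Fgf7 had a contact 202 kb downstream at 0 and 6.71, so the bait had a pre-granulosa value at another bin. Fgfbp1, which carries FGF ligands, had 2 contacts within 5 kb, at 6.80 and 5.36 and at 4.93 and 5.07. The extended baits added Fgf2, Fgf21 and Fgf23, the latter pair being hormone-like FGFs. Fgf2 had 2 Sertoli calls, at 5.18 and 5.05, beside 0 and 1.08. Fgf21 had 4 Sertoli and 2 pre-granulosa calls from a bin shared with Fut1, the strongest with Sec1 at 9.23 and 4.91. Fgf23 had 1 Sertoli call, at 5.30 and 0.2004.

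The NOTCH group was small. Notch1, a receptor, had 2 Sertoli calls upstream of its promoter, at 19.6 kb (5.17 and 2.26) and 30.3 kb (8.07 and 1.06), and a pre-granulosa call 39.2 kb away within the gene (2.16 and 5.08). Dll3, a ligand that inhibits NOTCH within the cell, had 1 shared contact, 92.3 kb away, at 5.41 and 5.07. With the extended baits Dll3 had 5 Sertoli and 2 pre-granulosa calls. Jag1, a membrane-bound ligand, had 1 listed contact there, with the Slx4ip promoter 226 kb away, at 6.71 in Sertoli and 14.0 in pre-granulosa cells. Notch1 kept its Sertoli call 31.2 kb away (7.63 and 0.769) and had a pre-granulosa call at the Egfl7 promoter (4.16 and 6.37).

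In the insulin and IGF group, Igf1r, the receptor for insulin-like growth factors, had 4 contacts in pairs of nearby bins on either side of its promoter. Upstream, in the RefSeq gene 4833412C05Rik, the bin 160.2 kb away scored 8.44 and 8.84 and the bin 150.0 kb away 7.80 and 3.39. Downstream, within the gene, the bin 174 kb away scored 6.55 and 3.42, and the bin 179.5 kb away 2.47 and 6.94. In the upstream pair the bin 160.2 kb away had nearly equal scores and the other a higher Sertoli score. The downstream pair held a bin with a higher Sertoli score and a bin with a higher pre-granulosa score. The extended bait, from the same libraries, gave the same order in all 4 bins. Insr, the insulin receptor, had 1 listed contact with the extended bait, 147 kb away in Arhgef18, at 1.12 and 5.25. Insrr, the remaining receptor of the family, had a Sertoli call (7.01 and 4.06) and a pre-granulosa call (4.69 and 5.08). Irs3, an adaptor of the insulin receptor, lies among many genes and had 3 Sertoli calls and 1 pre-granulosa call with the original bait, the latter 129 kb upstream at 0.531 and 5.42. The extended bait of Irs3 had 10 Sertoli and 6 pre-granulosa calls, led by the Lrch4 promoter at 13.4 and 10.2.

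Pdgfra, the receptor for PDGF-A that is widely used as a marker of interstitial cells, had the largest excess of pre-granulosa calls together with Tgfbr3l, 7 against 4 from 3 baits within 5.23 kb. All its contacts lay upstream, 191 to 843 kb away. The bin chr5:74942326-74947337 scored 7.26 and 10.8 from Pdgfra-208 and 6.69 and 6.75 from Pdgfra-205. The bin chr5:74958398-74963413 was listed from all 3 baits, at 2.15 and 9.45, 6.04 and 5.42, and 2.57 and 5.57. Its pre-granulosa score was thus past the threshold from every bait and its Sertoli score from 1. The bin chr5:74311604-74317063 in Scfd2 scored 5.52 and 3.28 from Pdgfra-208, 838 kb away, and 0 and 5.80 from Pdgfra-209, 843 kb away. A bin in Lnx1, 511 kb away, scored 0.719 and 5.05. The balance of Pdgfra turned with the extended baits, to 11 Sertoli and 9 pre-granulosa calls, 7 of them shared. There the contact with the promoters of Fip1l1 and Scfd2, 616 kb away, scored 5.52 and 15.3 from the first bait and 8.37 and 7.42 from the second, and the bin in Scfd2 scored 8.91 and 13.7.

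Pdgfa, a ligand of PDGFRA, had 1 original contact, 86.0 kb upstream in Prkar1b, at 6.65 and 0.484. The extended bait had 6 Sertoli and 2 pre-granulosa calls, none shared, and the same Prkar1b region scored 8.95 and 2.15. Pdgfc, another ligand, contacted the Glrb promoter 126 kb away in both cell types (14.3 and 5.71) and had Sertoli calls at the promoters of Gask1b, 1152 kb away, and Ctso, 897 kb away, at 5.13 and 5.14 with 0 in pre-granulosa cells. Pdgfrl, a receptor-like protein, had 1 Sertoli call, with Mtus1, at 5.66 and 0.158.

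Among the other LDL receptor genes, Lrp4, a receptor for agrin that also binds WNT inhibitors, had 10 Sertoli and 3 pre-granulosa calls, and 4 and 3 contacts once touching bins were merged. A run of 7 touching bins 147 to 179 kb away, all within 1110051M20Rik, was called throughout in Sertoli cells, at 5.23 to 13.4. The 3 pre-granulosa calls lay in the same run, at 7.32, 8.85 and 6.95, and all 3 were shared. The extended bait had 7 Sertoli calls over the same stretch, 4 of its 5 pre-granulosa calls there, and a shared contact with the 1110051M20Rik promoter 10.3 kb away (14.5 and 12.4). Lrp8, a receptor for reelin, had Sertoli calls before the gene (6.67 and 1.90, 5.01 and 2.20) and pre-granulosa calls inside it (0.888 and 5.20, 3.61 and 8.32). The extended bait of Lrp8 contacted the Dmrtb1 promoter 163 kb away at 9.87 and 0.215. Lrp3 had 2 contacts within its gene, at 5.80 and 9.39 and at 1.88 and 5.003. Lrpap1, a chaperone of the family, had 5 Sertoli and 2 pre-granulosa calls, the strongest within the gene at 9.16 and 6.56. Lrp2bp, a binding partner of megalin, had 2 shared calls, at 6.09 and 8.44 and at 5.20 and 6.61. An extended bait of Lrp2bp, a bin shared with Ankrd37, contacted the Cfap97 promoter 166 kb away at 1.71 and 11.0. Lrp1b had 1 listed contact, with another promoter of its own 27.0 kb away, at 4.53 and 5.63.

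The genes that only share a name had some of the strongest promoter contacts. Dkkl1, which encodes a protein of the sperm acrosome, contacted the same bin, about 4 kb away, at 14.6 and 8.70 from 1 bait and at 14.8 and 9.47 from the other. Tgfb1i1, which encodes the focal adhesion protein Hic-5, had 6 Sertoli and 4 pre-granulosa calls, and 3 against 4 when both cell types had as many calls over all baits. Its extended bait contacted the Slc5a2 promoters at 25.9 and 18.6. Jagn1, which encodes a protein of the endoplasmic reticulum, contacted Il17re at 27.4 and 14.7.

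With the extended baits the members departed further from the other promoters. Of the 302 listed contacts, 249 (82.5%) were called in Sertoli cells, beside 78.7% over all baits, and 141 (46.7%, 41.1 to 52.3) in pre-granulosa cells, beside 55.9%. Both cell types called 88 (29.1%, 24.3 to 34.5), beside 34.6% over all baits. There were 161 Sertoli-specific calls (53.3%, 47.7 to 58.9), beside 44.1%, and 53 pre-granulosa-specific calls (17.5%), beside 21.3%. The intervals of the pre-granulosa, shared and Sertoli-specific shares leave out the value over all baits, but they cover counting error only and are too narrow where touching bins share signal. More Sertoli calls were found for 48 of 74 baits (64.9%, beside 53.6% over all baits) and more pre-granulosa calls for 10 (13.51%, beside 26.4%). Sertoli calls outnumbered pre-granulosa calls by a ratio of 1.77 for the members and 1.41 for other baits, whereas with the original baits it was 1.86 and 1.93. By gene, 41 of 58 had more Sertoli calls and 6 (Bmp7, Fgfbp1, Insr, Lrp1b, Lrp2bp and Tgfbr3l) more pre-granulosa calls. Of the 34 genes in both tables, 25 had more Sertoli calls in both, Fgfbp1 and Tgfbr3l more pre-granulosa calls in both, 1 equal numbers in both, and Pdgfra opposite directions. Both tables come from the same libraries, so this is no independent repeat, and no such count for other genes stands beside it. Of the 170 original contacts, 118 had an overlapping contact of the same gene in the extended table, and 95 of these had the same class.

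**Figure D5:**
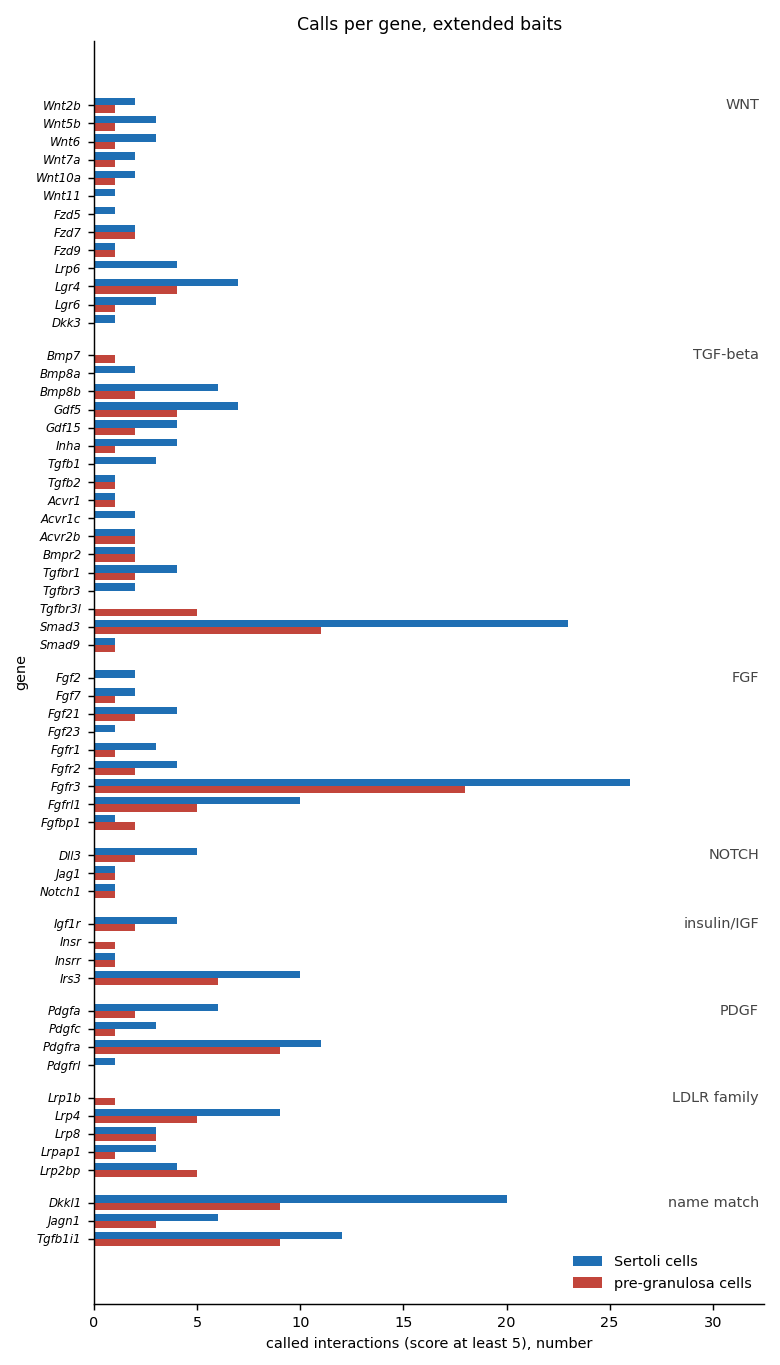
Called interactions (number, horizontal axis) of each of the 58 genes with the extended baits, in Sertoli cells (blue) and pre-granulosa cells (red), grouped by pathway. Fgfr3, Smad3 and Dkkl1 have the most Sertoli calls, with 26, 23 and 20, and Tgfbr3l has 5 pre-granulosa calls and no Sertoli call.

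Many extended contacts joined promoters. The other end carried a bait name in 116 of the 249 Sertoli calls (46.6%, 40.5 to 52.8), beside 55.2% for other baits, and in 82 of the 141 pre-granulosa calls (58.2%, 49.9 to 65.98), beside 60.97%. The highest Sertoli score between promoters was that of Gdf15 with Lrrc25, 16.1 kb away, at 29.2 and 17.1, and the highest pre-granulosa score the 18.6 of Tgfb1i1 with Slc5a2. Gdf15 also contacted Pgpep1 at 18.3 and 10.8. Wnt6 and Wnt10a were the only pair of different member genes whose baits contacted each other. Contacts between baits of 1 gene were found for Fgfr1, Fgfr3, Lgr6, Lrp1b, Lrp2bp, Lrp8, Smad3 and Wnt5b, and among them Fgfr3 had the highest scores, 22.5 and 14.0 from the 5′ bait and 15.7 and 11.4 from the other end. Of 141 listed contacts between a member bait and another bait, 88 (62.4%) were also listed from the other side, beside 68.2% for other baits, and 71 of the 88 had the same class from both sides.

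The other genes of these pathways, a hand-made list of 174 further ligands, receptors, antagonists, adaptors, processing enzymes and nuclear effectors, are given by their counts alone. With the original baits 49 of them had a bait and 288 listed contacts. Of these 81.9% were called in Sertoli cells, 42.01% in pre-granulosa cells and 24.0% in both, beside 80.2%, 41.5% and 21.7% over all baits. More Sertoli calls were found for 32 of the 49 genes (65.3%), more pre-granulosa calls for 12 and equal numbers for 5. Over all baits, counted by bait and not by gene, 65.2% had more Sertoli calls. With the extended baits 33 of 60 genes (55%, beside 53.6% of all baits, again counted by bait) had more Sertoli calls and 16 more pre-granulosa calls. In the WNT list, 7 of 12 genes had more Sertoli calls and 3 more pre-granulosa calls. Ctnnb1, which encodes beta-catenin, had 30 Sertoli and 8 pre-granulosa calls, while Lef1, a nuclear partner of beta-catenin, had 3 and 5. In the FGF list, none of the 2 genes with an original bait and of the 3 with an extended bait had more Sertoli calls, with 4 Sertoli and 6 pre-granulosa calls in sum, then 5 and 7. In the TGF-beta list, 7 of 10 genes had more Sertoli calls, among them Smurf1 with 24 and 10, a ubiquitin ligase for SMADs and receptors. In the NOTCH list, 7 of 9 had more Sertoli calls, among them Psen2, a subunit of the protease that cleaves NOTCH, with 24 and 11. In the insulin list, 9 of 10 genes had more Sertoli calls with the original baits and 7 of 13 with the extended baits. Akt2, a kinase downstream of the insulin receptor, had 12 and 1 calls with the original and 18 and 13 with the extended baits, and the ligand gene Igf2 had 9 and 3, then 19 and 20. Among the other receptor kinase genes the balance was 2 to 4, with Csf1, a macrophage growth factor, at 7 and 12 and Egf at 0 and 2.

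The promoter windows of the members were searched on both strands for short motifs of factors that act in these pathways or in the gonad. CTTTGAT, bound by TCF/LEF, was in 3 of 51 windows (5.88%, against 4.00% of all promoters), those of Lrp3, Wnt11 and Wnt5b. GTGGGAA, bound by RBPJ, was in those of Bmpr2 and Smad9 (3.92%, against 6.44%), and AAGGTCA, bound by NR5A1, in those of Dkkl1 and Igf1r (3.92%, against 4.74%). AACAAT, bound by SOX factors, was in 4 windows (7.84%, against 10.8%), those of Acvr1c, Dkkl1, Fgf23 and Lgr6. No window held GTCTAGAC (SMAD, 0.183% of all promoters) or GTAAACA (forkhead, 3.84%). The matches are descriptions of these letters in windows of 300 bases.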

How the data were processed

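Capture Hi-C was measured in 3 Sertoli and 2 pre-granulosa libraries. The authors deposited 2 tables of CHiCAGO scores, for original and extended baits, on mm10 per the submitters' processing notes. Each holds 1 score column per cell type. The aligner, the caller's version and how libraries were joined are not given in the sources used here, and 0 columns were left unused. A score of 0 may stand for no usable value. The extended table lists no contact nearer than 10.0 kb.

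Members were found by symbol, and members and lists were chosen with earlier results of these data known. A score of at least 5 in a cis interaction was a call, shared where both cell types reached it and otherwise specific. Of 30 genes picked as known in the gonad, 18 had a member bait and 12 are not analysed here. In detail the text names those genes, the genes with the most contacts or the largest excess of calls, and the strongest, longest and most different contacts; every other member gets its calls or scores. Shares have 95% Wilson intervals and medians order-statistic intervals, which cover counting error only and take no account of signal that touching bins may share. With 1 column per cell type no test was made. Alternatives were a threshold of 10, the extended baits, contacts of at least 50 kb, equal numbers of calls, merged bins and, for specific calls, an other score under 3 or 1. Gene positions and promoters came from RefSeq on GRCm38.p6 (all 62 genes matched by symbol on the same chromosome). Counting was tested on simulated data, with Python 3.11.15, pandas 2.3.3, numpy 2.4.6, SciPy 1.17.1 and matplotlib 3.10.9.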

Additional observations from a re-analysis of the deposited data

How the results depend on the processing

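The depth is unknown, and each cell type has 1 column, so no result has a replicate error. No paired analysis was possible because the deposited scores are given once per cell type, not per library, and leaving out a library could not be run for the same reason. With a threshold of 10, the members had 18 Sertoli and 5 pre-granulosa calls, 16 and 3 of them specific. The shared calls were then 11.1% of the Sertoli and 40% of the pre-granulosa calls, and the median distances 99.0 and 96.5 kb. With the extended baits there were 249 Sertoli and 141 pre-granulosa calls, 161 and 53 of them specific. With contacts of at least 50 kb alone there were 70 and 33 calls, 53 and 16 of them specific, with median distances of 115 and 129 kb. With equal numbers of calls over all baits there were 68 Sertoli and 73 pre-granulosa calls, 41 and 46 of them specific. The excess of Sertoli-specific calls thus turned, and the shared calls were 39.7% of the Sertoli and 37.0% of the pre-granulosa calls. An other score under 3 left 20 pre-granulosa-specific calls, and one under 1 left 27 Sertoli-specific and 9 pre-granulosa-specific calls. Fewer contacts enter by construction under the stricter thresholds and the distance limit. The difference in calls, Sertoli minus pre-granulosa, turned for Pdgfra from -3 to 2 with the extended baits, and with equal numbers of calls for Smad3 from 9 to -3 and for Tgfb1i1 from 2 to -1. The asinh difference of the Gdf5 contact 96.5 kb away turned from -0.26 to 0.31 with the extended bait. The cause was not tested. The difference became 0 for Fgfr2 and Lrp6 with equal numbers of calls, for Smad3 with a threshold of 10, for Lgr4 with contacts of at least 50 kb, and for Acvr2b and Tgfb2 with the extended baits. With equal numbers of calls Inha, Lgr6 and Tgfbr3 had no call left.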

Other observations

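Some regions met several members or several kinds of gene. The Wnt7a bin that scored 32.5 in Sertoli cells was also listed for a bait of Hdac11, a histone deacetylase gene, with scores of 3.72 and 5.82. Of the 269 distinct bins listed for the extended baits, 147 were also listed for baits of genes outside the set, and 28 for several member baits.

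The share of contacts called in both cell types was highest near the bait, at members and other baits alike. With the original baits 14 of the 35 listed contacts nearer than 10 kb (40%) were shared, beside 37.8% for other baits. The shares were 16.3% at 10 to 50 kb (20.9% for other baits), 18.8% at 50 to 100 kb (16.2%), 21.6% at 100 to 200 kb (13.4%) and 27.3%, 3 of 11 contacts, at 200 to 500 kb (13.6%). Of the 6 contacts of at least 500 kb (Fgfr2, Pdgfra and Tgfb2), none was called in both cell types, beside 10 of 81 (12.3%) for other baits, and the extended Pdgfra baits had shared contacts 616 to 846 kb away. Across the 39 shared calls the Sertoli and pre-granulosa scores had a Spearman rho of 0.34, beside 0.35 for other baits, and these points share baits, bins and libraries.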
